A study of Mus musculus with 12 samples.

Results

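Skeletal muscle contractile genes were followed in mouse dermis by RNA sequencing. They are 34 genes, chosen by name, of 55401 genes in the deposited table. They encode the myosins, actin, tropomyosins, troponins, calcium handling proteins, energy enzymes and scaffold proteins of striated muscle fibres. By their known use in fibre types, 14 were listed as fast, 8 as slow and 12 as shared. All 12 samples came from C57BL/6 mice aged 6 weeks. They fell into 4 groups of 3 biological replicates: wild-type (WT) mice on day 0, WT mice on day 7, Cthrc1-/- mice on day 0 and Cthrc1-/- mice on day 7 of an experiment with paired wounds of equal size. Cthrc1-/- mice lack the gene for a secreted protein of the wound matrix, and the sources used here do not give how that deletion was made. They also do not give how the dermis was parted from the tissue under it, or whether the wound lay within the sampled dermis.

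In a muscle fibre, thick filaments of myosin pull on thin filaments of actin, and troponin and tropomyosin on the thin filament switch that pull on when calcium is released from the sarcoplasmic reticulum. Fast and slow fibres use different forms of myosin, troponin and the calcium pump, encoded by separate genes. The dermis itself holds no striated fibres, but in mice a thin sheet of striated muscle, the panniculus carnosus, lies under the skin and may come along when skin is dissected.

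Total counts ranged from 48329668 to 76938132 per sample. Cthrc1, the targeted gene, had at most 15 counts in a Cthrc1-/- sample and at least 1813 in a WT sample. The 34 genes together took from 0.0823% of all counts, in Cthrc1-/- day 0 replicate 3, to 0.534%, in WT day 7 replicate 2. These samples stood apart throughout: 30 of the 34 genes had their highest FPKM (fragments per length and depth) in WT day 7 replicate 2, and 21 had their lowest in Cthrc1-/- day 0 replicate 3. The median log2 change of the tested genes is given with and without either sample where its group enters a comparison. In bulk tissue, fewer muscle fibres in a sample and less RNA of a gene in each fibre cannot be told apart.

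The 250 bases before the start of transcription were read from RefSeq (GRCm38.p6) for 28 of the 34 genes. The RefSeq starts used for Ckm, Mylpf and Tnnc2 lie inside the longer gene spans of the GENCODE annotation. Printed here are 3 genes that are abundant and moved together over the samples, Ckm, Mylpf and Tnnc2, and the slow troponin gene Tnnc1, which did not move with them. Capitals mark matches to CAGCTG and CACCTG, the E-box forms bound by muscle regulators such as MyoD, to CATTCC, the MCAT element, to TATAAA, or to the MEF2 site and CArG box. Each was searched on both strands, so that a CATTCC on the other strand reads GGAATG.
Ckm (GRCm38.p6, chr7:19410844-19411093, plus strand): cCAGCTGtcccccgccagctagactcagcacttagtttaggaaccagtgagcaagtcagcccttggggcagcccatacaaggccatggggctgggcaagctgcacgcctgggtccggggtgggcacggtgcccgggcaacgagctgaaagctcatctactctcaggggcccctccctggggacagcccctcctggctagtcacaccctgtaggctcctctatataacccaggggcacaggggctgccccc
Mylpf (GRCm38.p6, chr7:127211358-127211607, plus strand): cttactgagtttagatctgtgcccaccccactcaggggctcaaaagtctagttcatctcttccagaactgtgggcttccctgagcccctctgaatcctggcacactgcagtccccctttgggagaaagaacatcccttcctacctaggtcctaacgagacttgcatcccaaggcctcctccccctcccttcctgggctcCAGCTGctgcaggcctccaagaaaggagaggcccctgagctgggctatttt
Tnnc2 (GRCm38.p6, chr2:164779735-164779984, minus strand): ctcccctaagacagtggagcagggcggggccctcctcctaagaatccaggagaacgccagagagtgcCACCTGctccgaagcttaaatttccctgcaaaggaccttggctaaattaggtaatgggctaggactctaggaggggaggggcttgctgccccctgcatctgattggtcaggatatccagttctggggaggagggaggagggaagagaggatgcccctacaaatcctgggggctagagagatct
Tnnc1 (GRCm38.p6, chr14:31208062-31208311, plus strand): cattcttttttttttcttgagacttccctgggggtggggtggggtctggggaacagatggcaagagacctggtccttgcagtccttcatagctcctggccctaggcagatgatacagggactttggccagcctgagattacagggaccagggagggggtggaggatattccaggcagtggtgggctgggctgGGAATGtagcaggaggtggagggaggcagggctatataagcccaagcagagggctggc
CAGCTG lay in 12 of the 28 windows (42.9%), against 12.8% of 27025 windows of the same length over all genes. CACCTG lay in 7 of 28, against 17.1%, and the looser CANNTG, which takes in both forms, in 24 of 28, against 66.0%. CATTCC was found in 10 of 28 (all genes 12.6%), TATAAA in 5 (13.0%), the MEF2 site in 4 (3.01%) and the CArG box in 3 (1.40%). A match says only that these letters stand in the window.

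Myosin heavy and light chains were present almost entirely as their fast forms. Myh4 (ENSMUSG00000057003, chr11:67238029-67260446), the heavy chain of the fastest fibres, measured 3.27, 4.28 and 10.4 FPKM in WT day 0, 2.16, 0.938 and 0.432 FPKM in Cthrc1-/- day 0, 1.73, 47.7 and 4.95 FPKM in WT day 7 and 3.57, 1.96 and 0.738 FPKM in Cthrc1-/- day 7, in order of replicates 1 to 3. Its 3 Cthrc1-/- day 0 samples lay below the WT day 0 samples, and WT day 7 replicate 2 stood far above the other 11. Myh1 (ENSMUSG00000056328, chr11:67200052-67224575), another fast heavy chain, measured 4.07, 2.69 and 9.90 FPKM in WT day 0, 1.63, 1.12 and 0.187 FPKM in Cthrc1-/- day 0, 1.96, 48.9 and 7.80 FPKM in WT day 7 and 1.74, 1.51 and 0.570 FPKM in Cthrc1-/- day 7. In Myh1 too the genotypes did not overlap on day 0, and on day 7 the highest Cthrc1-/- sample lay just under the lowest WT sample. Myh2 (ENSMUSG00000033196, chr11:67171027-67197517), the heavy chain of fast oxidative fibres, was less abundant, at 0.272, 0.784 and 0.916 FPKM in WT day 0, 0.458, 0.230 and 0.0194 FPKM in Cthrc1-/- day 0, 0.252, 7.55 and 1.23 FPKM in WT day 7 and 0.162, 0.257 and 0.227 FPKM in Cthrc1-/- day 7. Its genotypes overlapped on both days. These 3 genes lie side by side on the plus strand of chromosome 11 (GENCODE M21 on GRCm38, as are all gene positions here).

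Myh7, the slow heavy chain, measured 0, 0.0128 and 0 FPKM in WT day 0, 0.0118, 0.0108 and 0 FPKM in Cthrc1-/- day 0, 0, 0.0614 and 0 FPKM in WT day 7 and 0, 0.00536 and 0 FPKM in Cthrc1-/- day 7. It had a count above 0 in 5 of the 12 samples, and its highest value was again in WT day 7 replicate 2. Slow light chains were scarce too, with Myl2 at 0.0331, 0 and 0 FPKM in WT day 0, 0.0724, 0 and 0.0349 FPKM in Cthrc1-/- day 0, 0.0312, 1.14 and 0 FPKM in WT day 7 and 0.0942, 0.140 and 0.110 FPKM in Cthrc1-/- day 7. Myl3 measured 0.126, 0.0839 and 0.0652 FPKM in WT day 0, 0.102, 0 and 0 FPKM in Cthrc1-/- day 0, 0.0533, 0.297 and 0.0782 FPKM in WT day 7 and 0.0214, 0.0470 and 0.0367 FPKM in Cthrc1-/- day 7. Both peaked in WT day 7 replicate 2, and their genotypes overlapped on day 0. On day 7 the Cthrc1-/- samples of Myl3 all lay below the WT samples, at 4 to 48 counts per sample, and those of Myl2 overlapped. The fast regulatory light chain Mylpf (ENSMUSG00000030672, chr7:127208890-127214298) measured 64.3, 46.9 and 101 FPKM in WT day 0, 35.7, 27.5 and 12.1 FPKM in Cthrc1-/- day 0, 22.2, 129 and 36.9 FPKM in WT day 7 and 65.5, 36.6 and 25.4 FPKM in Cthrc1-/- day 7. It was separated by genotype on day 0 and not on day 7. The fast essential light chain Myl1 ranged from 4.71 to 87.6 FPKM. Among the myosin binding proteins, which brace the thick filament, fast Mybpc2 ranged from 0.472 to 17.3 FPKM and slow Mybpc1 from 0.773 to 14.7 FPKM. The slow form was the higher of these in 10 of the 12 samples, and it followed the fast genes over the samples (Spearman rho 0.965 with the median pattern of the 34 genes).

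On the thin filament, Acta1 (ENSMUSG00000031972, chr8:123891769-123894751), the skeletal actin, was the most abundant of the 34 genes per length. It measured 157, 116 and 278 FPKM in WT day 0, 108, 77.6 and 27.9 FPKM in Cthrc1-/- day 0, 60.4, 457 and 91.9 FPKM in WT day 7 and 101, 84.5 and 45.1 FPKM in Cthrc1-/- day 7. Day 0 WT samples all lay above day 0 Cthrc1-/- samples, though by a small gap, and on day 7 the Cthrc1-/- values lay inside the WT range but for replicate 3. Neb, the giant ruler protein of the thin filament, ranged from 0.0595 to 2.30 FPKM with the same highest and lowest samples. The tropomyosins behaved otherwise. Tpm1 measured 29.1, 22.9 and 30.7 FPKM in WT day 0, 27.9, 50.3 and 42.9 FPKM in Cthrc1-/- day 0, 24.1, 55.6 and 35.1 FPKM in WT day 7 and 35.0, 31.8 and 34.6 FPKM in Cthrc1-/- day 7, and Tpm3 measured 30.8, 28.5 and 31.3 FPKM in WT day 0, 39.9, 41.9 and 40.6 FPKM in Cthrc1-/- day 0, 67.6, 41.6 and 44.0 FPKM in WT day 7 and 43.3, 53.8 and 48.5 FPKM in Cthrc1-/- day 7. Both are also made in cells other than muscle. In Tpm3 the 3 WT day 0 samples were the lowest of the 12, and its highest sample was WT day 7 replicate 1, in which most of the fast-list genes were low.

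Troponin has 3 subunits, each with a fast and a slow gene in this set. Fast troponin C, Tnnc2 (ENSMUSG00000017300, chr2:164777161-164779967), measured 92.3, 64.1 and 139 FPKM in WT day 0, 58.9, 35.7 and 14.4 FPKM in Cthrc1-/- day 0, 21.3, 209 and 47.9 FPKM in WT day 7 and 52.4, 39.5 and 22.1 FPKM in Cthrc1-/- day 7. Fast troponin T, Tnnt3, measured 75.5, 50.2 and 119 FPKM in WT day 0, 48.1, 30.5 and 10.1 FPKM in Cthrc1-/- day 0, 20.5, 164 and 44.7 FPKM in WT day 7 and 37.1, 35.1 and 19.9 FPKM in Cthrc1-/- day 7, and fast troponin I, Tnni2, 42.6, 27.9 and 57.5 FPKM in WT day 0, 26.3, 17.3 and 7.58 FPKM in Cthrc1-/- day 0, 9.70, 97.7 and 24.6 FPKM in WT day 7 and 20.5, 17.6 and 10.2 FPKM in Cthrc1-/- day 7. All of these fast subunits had WT day 0 above Cthrc1-/- day 0 with no overlap, overlapped on day 7, and peaked in WT day 7 replicate 2.

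The slow subunits were lower and did not share that pattern. Slow troponin C, Tnnc1 (ENSMUSG00000091898, chr14:31208312-31211729), which is also the cardiac form, measured 1.32, 0.161 and 1.99 FPKM in WT day 0, 0.285, 0.237 and 0 FPKM in Cthrc1-/- day 0, 2.44, 2.16 and 2.69 FPKM in WT day 7 and 3.05, 1.67 and 1.84 FPKM in Cthrc1-/- day 7. Its day 7 samples lay above the day 0 samples in each genotype, and on day 0 the genotypes overlapped through WT replicate 2. The value of 0 is a count of 0, which allows up to 3 counts (counting error only). Slow troponin T, Tnnt1, measured 0.717, 0.227 and 1.09 FPKM in WT day 0, 0.296, 0.372 and 0.0413 FPKM in Cthrc1-/- day 0, 1.02, 2.69 and 2.18 FPKM in WT day 7 and 2.06, 1.25 and 1.35 FPKM in Cthrc1-/- day 7. In Cthrc1-/- every day 7 sample exceeded every day 0 sample of Tnnt1, whereas WT day 7 replicate 1 fell within the WT day 0 range. Slow troponin I, Tnni1, measured 1.36, 1.06 and 1.74 FPKM in WT day 0, 1.16, 1.30 and 2.02 FPKM in Cthrc1-/- day 0, 0.663, 1.96 and 1.92 FPKM in WT day 7 and 1.83, 1.05 and 2.17 FPKM in Cthrc1-/- day 7, with all 4 groups overlapping.

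Among calcium handling genes, the fast forms varied widely. Atp2a1 (ENSMUSG00000030730, chr7:126445858-126463108), the fast calcium pump of the sarcoplasmic reticulum, measured 23.5, 19.4 and 45.8 FPKM in WT day 0, 18.0, 12.2 and 4.65 FPKM in Cthrc1-/- day 0, 8.19, 128 and 13.5 FPKM in WT day 7 and 8.12, 9.78 and 3.16 FPKM in Cthrc1-/- day 7. Pvalb, the calcium buffer of fast fibres, measured 56.4, 38.7 and 84.0 FPKM in WT day 0, 33.3, 17.2 and 6.07 FPKM in Cthrc1-/- day 0, 5.10, 79.4 and 19.9 FPKM in WT day 7 and 22.9, 16.5 and 4.01 FPKM in Cthrc1-/- day 7. Both were separated by genotype on day 0 and overlapped on day 7. Atp2a2, the pump of slow and cardiac muscle and of many other cells, is not one of the 34 and ranged only from 30.5 to 45.2 FPKM. It exceeded Atp2a1 in all samples but WT day 0 replicate 3 and WT day 7 replicate 2. Casq1, which stores calcium, ranged from 1.12 to 30.2 FPKM, and Ryr1, the calcium release channel, from 0.183 to 2.45 FPKM.

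Of the energy genes, Ckm (ENSMUSG00000030399, chr7:19404776-19422841), the muscle creatine kinase, measured 41.3, 31.3 and 65.9 FPKM in WT day 0, 26.0, 17.4 and 5.75 FPKM in Cthrc1-/- day 0, 9.73, 102 and 18.3 FPKM in WT day 7 and 18.4, 17.7 and 5.16 FPKM in Cthrc1-/- day 7. Mb, the oxygen store myoglobin, measured 16.2, 17.3 and 25.2 FPKM in WT day 0, 11.8, 10.3 and 2.97 FPKM in Cthrc1-/- day 0, 5.78, 41.2 and 11.2 FPKM in WT day 7 and 8.85, 9.48 and 5.99 FPKM in Cthrc1-/- day 7. The genotypes were apart on day 0 and overlapped on day 7 in both genes. Eno3, a muscle enolase, ranged from 7.46 to 61.9 FPKM and Pygm, the muscle glycogen phosphorylase, from 2.15 to 35.8 FPKM.

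Des (ENSMUSG00000026208, chr1:75360329-75368579), the intermediate filament desmin that also occurs in smooth muscle, measured 29.0, 28.1 and 35.5 FPKM in WT day 0, 18.6, 9.51 and 2.98 FPKM in Cthrc1-/- day 0, 16.3, 37.3 and 15.8 FPKM in WT day 7 and 16.6, 20.6 and 12.7 FPKM in Cthrc1-/- day 7. WT day 0 averaged 30.9 ± 4.04 FPKM (SD, n = 3), and Cthrc1-/- day 0 averaged 10.4 ± 7.85 FPKM (SD, n = 3) with no overlap. Ttn, the giant spring of the sarcomere, measured 0.119, 0.0990 and 0.223 FPKM in WT day 0, 0.0569, 0.0408 and 0.00999 FPKM in Cthrc1-/- day 0, 0.0717, 1.23 and 0.152 FPKM in WT day 7 and 0.0695, 0.0470 and 0.0174 FPKM in Cthrc1-/- day 7. The Cthrc1-/- samples of Ttn lay below the WT samples on both days, by a small gap on day 7. The Z-disc genes ranged from 0.436 to 16.8 FPKM for Actn2, 1.37 to 22.9 FPKM for the fast form Actn3, 2.28 to 73.2 FPKM for Tcap and 1.29 to 17.2 FPKM for Myoz1.

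**Figure D1:**
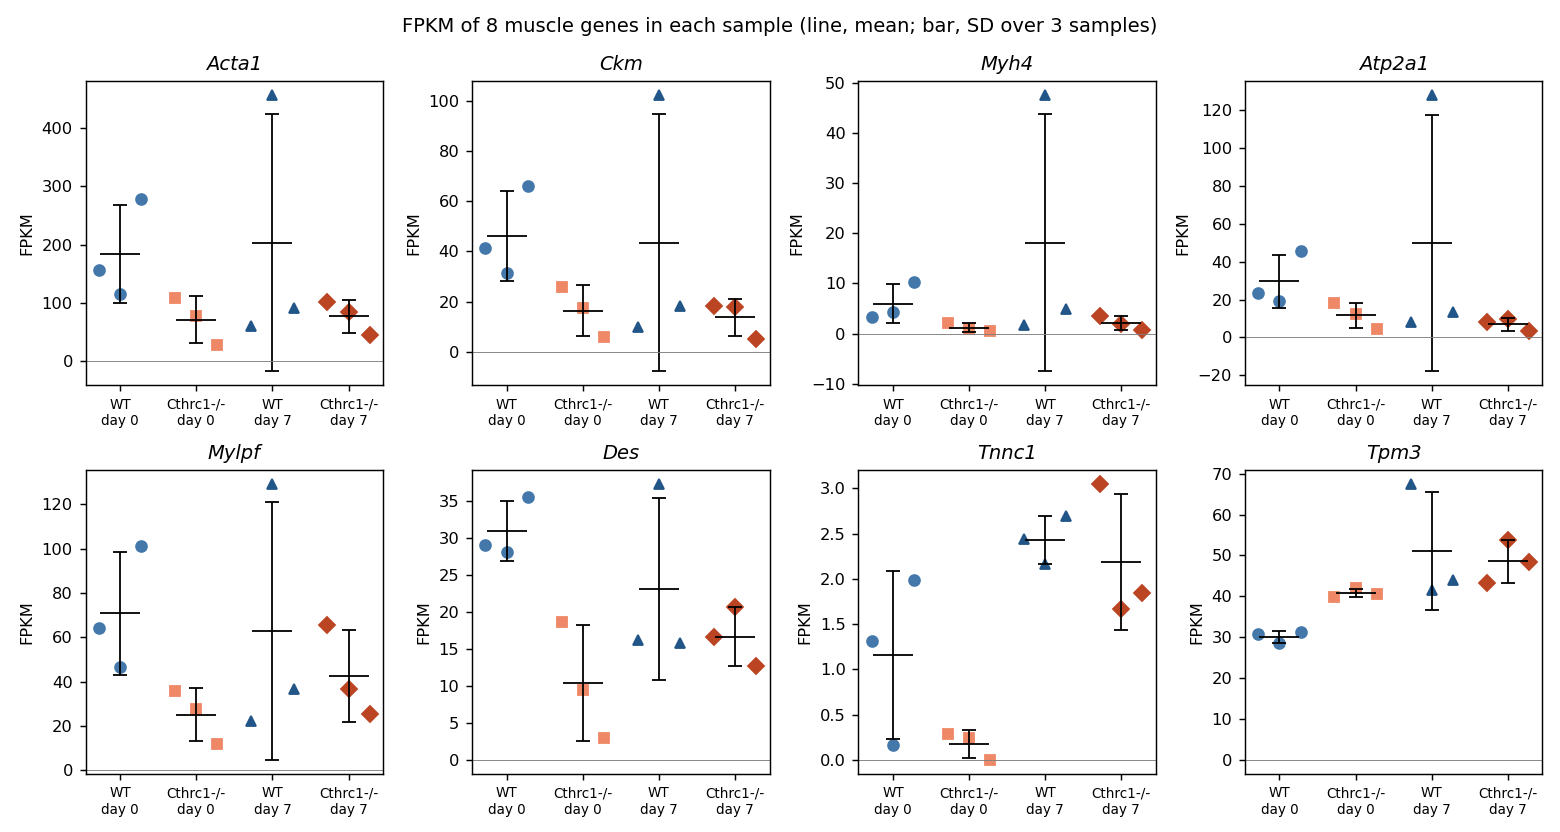
FPKM (linear axis) of Acta1, Ckm, Myh4, Atp2a1, Mylpf, Des, Tnnc1 and Tpm3 in each of the 12 samples, by group. Each symbol is a sample, the short line is the group mean and the bar the SD over 3 samples; the wide WT day 7 bars of Acta1, Ckm, Myh4, Atp2a1 and Mylpf come from replicate 2, while Tnnc1 and Tpm3 have no such peak.

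Most of the genes moved as a block from sample to sample. Over the 12 samples, 26 of the 34 had a Spearman rho of at least 0.7 with the median pattern of all 34 (0.734 to 0.993). This is a description over samples that share 4 groups and the depth of each library, and each gene is itself part of the median. Tnnt3 lay nearest to the pattern (0.993), followed by Tnni2, Eno3 and Acta1. The 8 others had a rho under 0.4: Myh7 0.359, Tnnt1 0.308, Tnnc1 0.224, Ryr1 0.217, Tnni1 -0.0490, Tpm1 -0.0979, Myl2 -0.114 and Tpm3 -0.566. Of those, 6 were on the slow list and 2, Tpm1 and Ryr1, on the shared list, and no gene of the fast list was among them. Myh7 (0 to 42 counts per sample) and Myl2 (0 to 172) lay near the floor, where a rho says little. The slow genes Mybpc1 (0.965) and Myl3 (0.809, at 0 to 48 counts) followed the pattern. In WT day 7 replicate 2 the median over genes of the level against the median of the other 11 samples was 5.17-fold. That ratio was not even across genes: it was 28.0 for Myh1, 22.1 for Myh4, 17.7 for Ttn and 10.5 for Atp2a1, and 3.53 for Mylpf.

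**Figure D2:**
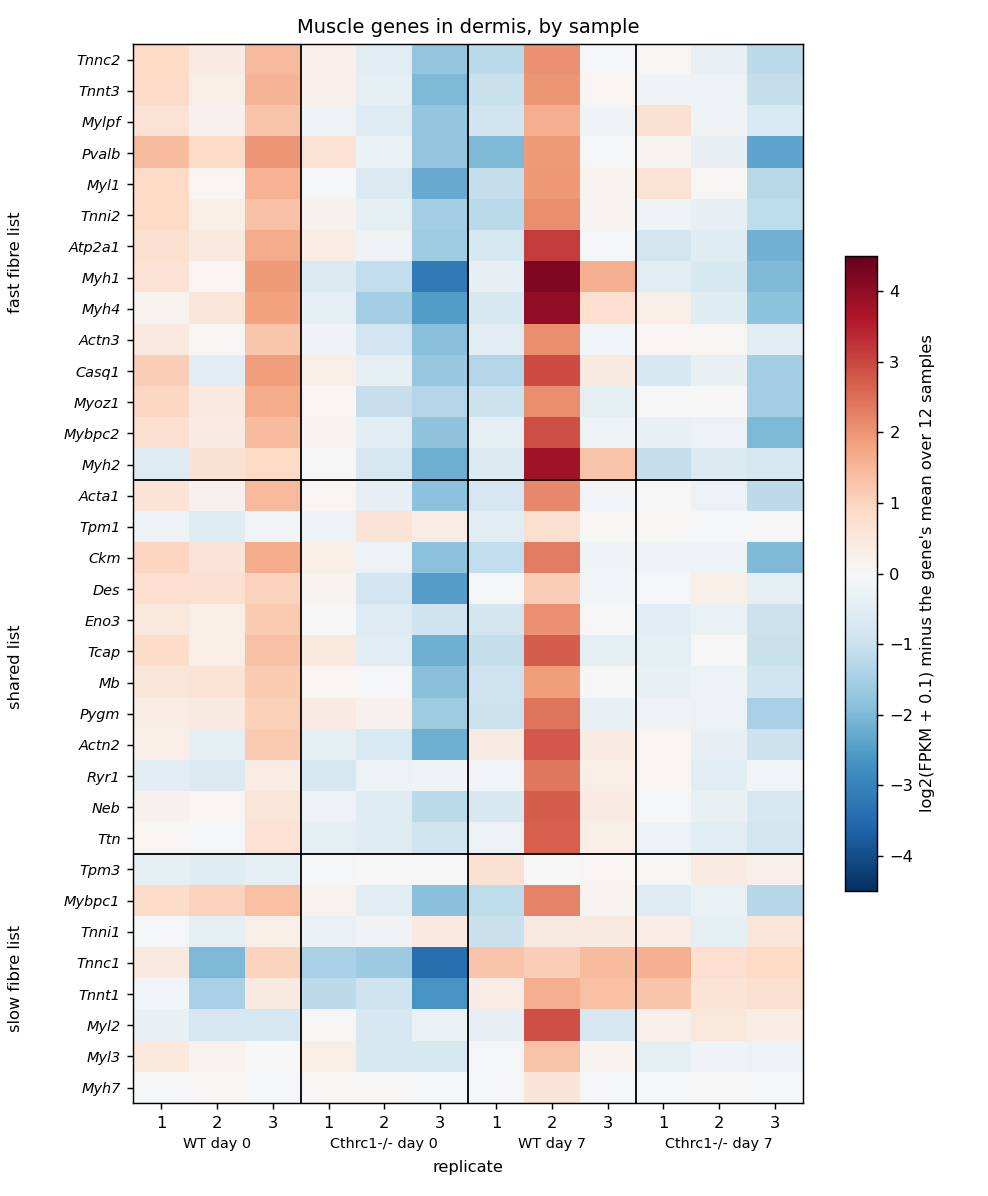
Level of the 34 genes (rows) in the 12 samples (columns) as log2(FPKM + 0.1) minus the mean of that gene over the samples; red is above and blue below its mean. WT day 7 replicate 2 is red in nearly every fast and shared row, Cthrc1-/- day 0 replicate 3 is blue in most, and the slow rows Tnnc1 and Tnnt1 are red in the day 7 columns.

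Fast against slow was summarised per sample. The summed FPKM of the 14 fast genes was 431, 295 and 682 FPKM in WT day 0, 262, 166 and 64.9 FPKM in Cthrc1-/- day 0, 110.5, 1087 and 242 FPKM in WT day 7 and 262, 197 and 102 FPKM in Cthrc1-/- day 7. The slow sum is mostly Tpm3. Without it, the rest of the slow list summed to 1.89% to 6.57% of the fast sum over the 12 samples. Of the FPKM of the 4 heavy chains Myh1, Myh2, Myh4 and Myh7, Myh1 held 29.3% to 55.8%, Myh4 35.4% to 67.6%, Myh2 2.97% to 14.8% and Myh7 at most 0.470%. On day 7, Myh1 took 46.9% to 55.8% in WT and 31.8% to 40.4% in Cthrc1-/-, with no overlap, and the shares overlapped on day 0. This is a description without a test.

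Slow forms took a larger share of troponin T in every day 7 sample, and of troponin C in all but WT day 7 replicate 2; these shares are a description without a test. Slow troponin C, Tnnc1 as a share of Tnnc1 plus Tnnc2, was 1.41, 0.250 and 1.41% in WT day 0, 0.481, 0.658 and 0% in Cthrc1-/- day 0, 10.3, 1.02 and 5.32% in WT day 7 and 5.50, 4.06 and 7.71% in Cthrc1-/- day 7. The lowest day 7 share in Cthrc1-/- lay above every day 0 share, and WT day 7 replicate 2, the sample richest in fast genes, lay within the WT day 0 range. For slow troponin T, Tnnt1 over Tnnt1 plus Tnnt3, all day 7 shares (1.61% to 6.37%) exceeded all day 0 shares (0.406% to 1.20%). For slow troponin I, Tnni1 over Tnni1 plus Tnni2, the days overlapped and the highest shares, 21.0% and 17.5%, were in the Cthrc1-/- samples lowest in fast genes on each day. A share can move through either of its genes.

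**Figure D3:**
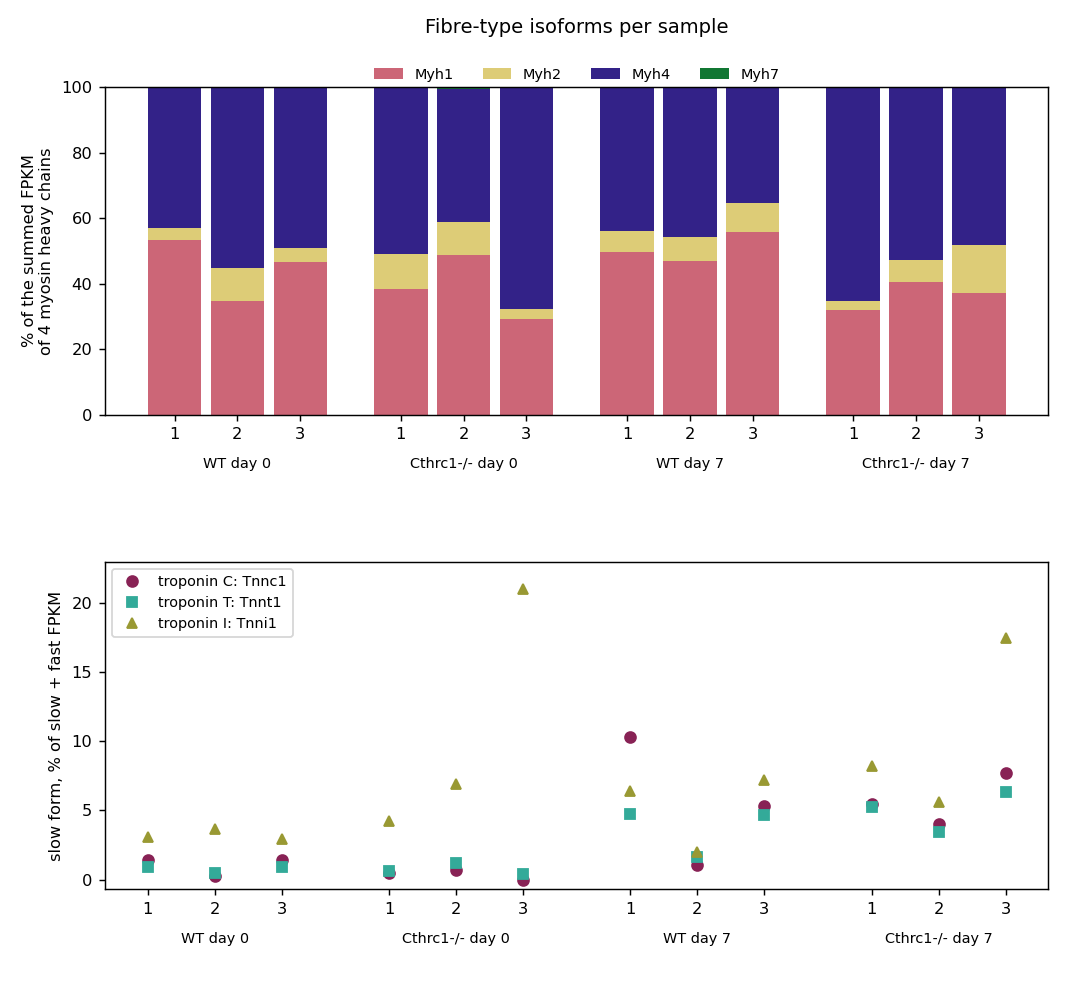
Upper panel, share (%) of Myh1, Myh2, Myh4 and Myh7 in their summed FPKM per sample, as stacked bars from 0 to 100; Myh7 is barely visible. Lower panel, the slow gene as % of slow plus fast FPKM for troponin C, T and I in each sample; C is higher in the day 7 samples other than WT replicate 2, T in all day 7 samples, and I is highest in Cthrc1-/- replicate 3 on both days.

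Cthrc1-/- and WT dermis were first compared on day 0. Of the 34 genes, 28 passed the filter on low values (a mean of at least 1 FPKM) and were tested, and Myh7, Myl2, Myl3, Ttn, Neb and Ryr1 did not. No gene passed the edgeR quasi-likelihood test at an adjusted p under 0.05 (0 of 28, against 5.78% of 14313 genes tested). DESeq2 called 3 of 28 (Des, Myh1 and Tnnc1), a smaller share than the 19.5% it called of all genes. With limma 0 were called on log2(FPKM + 1) (4.2% of all genes) and 0 on log2(FPKM + 0.1) (4.85%). At an unadjusted edgeR p under 0.05 there were 6 of 28 (28.4% of all genes). That count was 17 with only the day 0 groups in the fit (28.7% of all genes). With a sample left out of the fit, in which all groups share 1 estimate of spread, it ran from 1 without WT day 0 replicate 3 (21.3% of all genes) to 19 without WT day 7 replicate 2 (27.0%). The log2 change was below 0 in 26 of 28, against 53.6% of all genes, with a median of -1.55, against -0.05 over all genes, and total-count scaling moved the latter by 0.11. In 18 of 28 genes every Cthrc1-/- sample lay below every WT sample (19.8% of all genes). These were 12 of 14 fast genes, 5 of 9 shared genes and 1 of 5 slow genes, and in 1 gene, Tpm3, the order was the other way (21.5% of all genes).

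Among fast genes the log2 change ran from -2.57 in Myh1 (SE 1.12; edgeR, adjusted p 0.166) to -1.40 in Tnni2 (SE 0.740; edgeR, adjusted p 0.239). Myh4 had -2.42 (SE 1.14; edgeR, adjusted p 0.193). For Acta1 the means were 183 ± 84.0 FPKM in WT against 71.1 ± 40.4 FPKM without Cthrc1 (SD, n = 3 each), and the log2 value was -1.45 (SE 0.762; edgeR, adjusted p 0.238). For Ckm the means were 46.2 ± 17.8 FPKM and 16.4 ± 10.1 FPKM (SD, n = 3 each), and the log2 value was -1.57 (SE 0.871; edgeR, adjusted p 0.259). The smallest adjusted p was that of Des, 0.104 by edgeR at a log2 change of -1.64 (SE 0.580). Tnnc1 had -2.76 (SE 1.02; edgeR, adjusted p 0.113), while Tpm1 (0.44) and Tpm3 (0.33) were the genes with a value above 0. Without Cthrc1-/- day 0 replicate 3 the median over the 28 genes was -1.12, without WT day 0 replicate 3 it was -1.16, and without Cthrc1-/- day 0 replicate 1 it was -2.10. In the last of these fits Des was called (edgeR adjusted p 0.0271). That is 1 of 28 genes, a smaller share than the 2146 of all 14313 genes called there. Tpm3 was called, as higher, without WT day 7 replicate 1 (edgeR adjusted p 0.0462). It was the 1 of 28 called there, again a smaller share than the 1574 of all 14313 genes.

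Markers of other tissue also had separate ranges in the genotypes on day 0. Of 10 marker lists, the summed FPKM of 6 had a Cthrc1-/- range wholly below the WT range. For fibroblast genes it was 5066 to 6668 in WT and 381 to 2555 in Cthrc1-/- (7 of 7 genes without overlap). For adipocyte genes it was 474 to 650.1 and 102 to 319.6 (7 of 9) and for endothelium 50.8 to 51.5 and 15.1 to 40.9 (5 of 5). For smooth muscle it was 292 to 320.4 and 116 to 195 (8 of 9, and the other, Smtn, was higher in every Cthrc1-/- sample). For nerve genes the ranges of the sum, 97.3 to 152 and 27.3 to 107, overlapped, though 5 of 6 genes lay lower without overlap. For satellite cell and regeneration genes, which mark the stem cells of muscle, it was 2.48 to 7.35 and 0.0242 to 0.559 (6 of 10), and for heart muscle genes 5.12 to 12.8 and 2.57 to 4.82 (2 of 9). Only 1 of those 10 and 4 of those 9 genes passed the filter on low values. Their counts are therefore not like the shares over all genes tested given below. Genes of the inner root sheath of the hair follicle lay the other way, at 2.77 to 5.54 in WT and 231 to 11647 in Cthrc1-/- (7 of 7). Sums of epidermal keratinocyte genes (9764 to 10551 and 4338 to 10093) and leukocyte genes (227 to 244 and 86.3 to 253) overlapped. Of the 7 keratinocyte genes 3 lay lower in every Cthrc1-/- sample and 1 higher, and of the 7 leukocyte genes 2 lay lower and 2 higher. Of all genes tested, 19.8% had every Cthrc1-/- sample below every WT sample and 21.5% had the reverse order. Cthrc1-/- day 0 replicate 3 had the lowest sum of its group in 9 of the 10 lists, and no gene of the lists was at 0 in all 12 samples. The part of these tissues in the muscle gene difference was not tested.

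**Figure D4:**
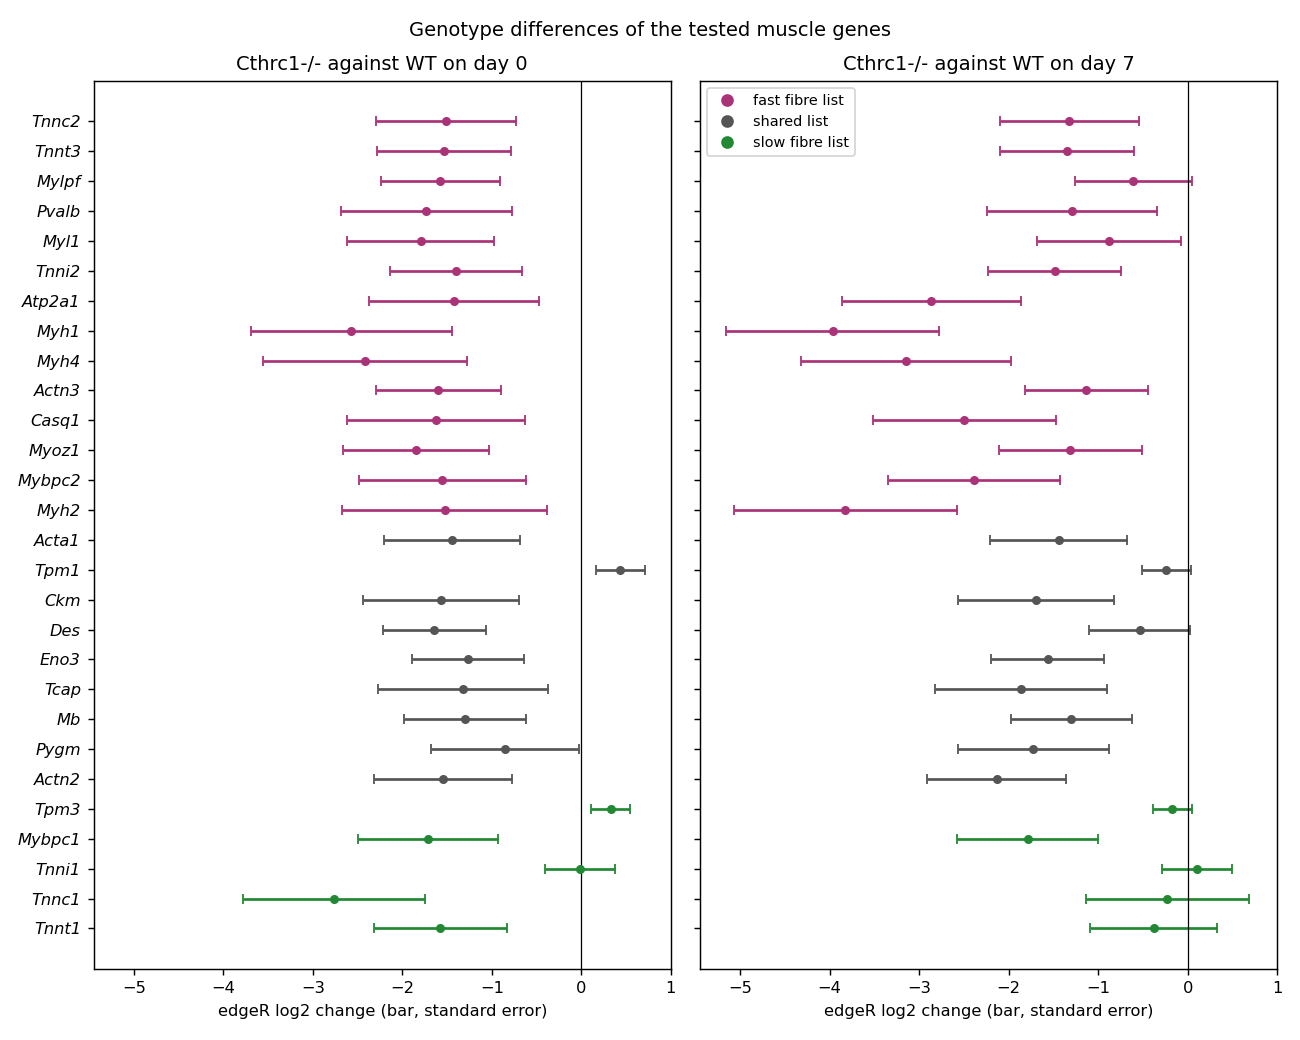
edgeR log2 change of the 28 tested genes, Cthrc1-/- against WT, on day 0 (left) and day 7 (right); points are estimates, bars are standard errors and colours the fast, shared and slow lists. On day 0 the fast genes lie between -2.57 and -1.40, and on day 7 they spread from -3.97 to -0.61 with WT day 7 replicate 2 included.

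On day 7 the question was whether the genotypes differed after wounding. By edgeR 0 of 28 genes were called (0.021% of all genes), 9 had an unadjusted p under 0.05 (5.46%), and 4 did with only the day 7 groups in the fit (3.81%). DESeq2 called 1 (Myh1, against 0.433% of all genes), and limma 0 on log2(FPKM + 1) (0.0559%) and 0 on log2(FPKM + 0.1) (0.0349%). The log2 change was below 0 in 27 of 28 genes (51% of all genes), with a median of -1.40. This rested on 1 sample. Without WT day 7 replicate 2 the median was -0.11 (all genes 0.003) and 18 of 28 values were below 0. In that fit 0 of 28 had an unadjusted edgeR p under 0.05 (6.43% of all genes). Myh1 went from -3.97 (SE 1.19; edgeR, adjusted p 0.907) to -1.95 without that sample, Myh4 from -3.15 to -0.71, Atp2a1 from -2.87 to -0.69, Ckm from -1.70 to -0.08 and Acta1 from -1.44 to -0.06. In 2 of 28 genes, Myh1 and Actn2, every Cthrc1-/- sample lay below every WT sample (2.67% of all genes), and in 0 the reverse held (6.46%).

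WT day 7 replicate 2 had a sum of 7.63 FPKM over the satellite cell and regeneration list, the highest of its group, and 158 FPKM over the adipocyte list, also the highest. Its fibroblast sum, 4982 FPKM, lay within the range of the other WT day 7 samples. It was highest of its group in 5 of the 10 lists. On day 7 no list had a Cthrc1-/- range wholly below that of WT.

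Between days, no gene was called in WT by edgeR (0 of 28, against 13.1% of all genes), and 1 had an unadjusted p under 0.05 (32.6%). The median log2 change of day 7 against day 0 in WT was 0.04, and -1.46 without WT day 7 replicate 2 (all genes -0.004). Without that sample 25 of 28 values were below 0 and 15 had an unadjusted edgeR p under 0.05 (29.1% of all genes). Total-count scaling moved the median of all genes by 0.20 in this comparison, and that of the 28 genes from 0.04 to 0.27. Every day 7 sample exceeded every day 0 sample in 2 of 28 genes, Tpm3 and Tnnc1 (29.8% of all genes), and none of the 28 had the reverse order (14.1%). Tpm3 averaged 30.2 ± 1.46 FPKM on day 0 and 51.1 ± 14.4 FPKM on day 7 (SD, n = 3 each), and the log2 value was 0.60 (SE 0.219; edgeR, adjusted p 0.0914). It passed with DESeq2 (adjusted p 0.0289), with limma (adjusted p 0.0261 on log2(FPKM + 1) and 0.0249 on log2(FPKM + 0.1)) and with edgeR under total-count scaling (adjusted p 0.0221), so its call depends on the tool and the scaling. It was the 1 gene of 28 called in each of these, which called 24.8% (DESeq2), 13.4% and 14% (limma) and 15.4% (total-count scaling) of all genes.

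In Cthrc1-/-, edgeR again called 0 of 28 genes between days (1.46% of all genes), with 2 at an unadjusted p under 0.05 (18.1%) and a median log2 change of -0.13. With total-count scaling, which moved the median of all genes by 0.17, the median of the 28 was 0.07. Without Cthrc1-/- day 0 replicate 3 that median was -0.50. The genes at the low p-values were both slow troponins. Tnnc1 averaged 0.174 ± 0.152 FPKM on day 0 and 2.19 ± 0.754 FPKM on day 7 (SD, n = 3 each), and the log2 value was 3.40 (SE 1.03; edgeR, adjusted p 0.119). Tnnt1 averaged 0.236 ± 0.173 FPKM and 1.56 ± 0.441 FPKM (SD, n = 3 each), and the log2 value was 2.50 (SE 0.760; edgeR, adjusted p 0.119). Without Cthrc1-/- day 0 replicate 3 the log2 value was 2.83 for Tnnc1 and 2.00 for Tnnt1. Both passed with DESeq2 (adjusted p 0.00781 for Tnnc1 and 0.0118 for Tnnt1), which called 9.84% of all genes. Both also passed with limma on log2(FPKM + 1), where the adjusted p was 0.0304 for Tnnc1 and 0.0487 for Tnnt1, and on log2(FPKM + 0.1). There limma called 5.41% and 5.4% of all genes. With Tpm3 they made up the 3 of 28 genes whose day 7 samples all exceeded the day 0 samples (21.5% of all genes), and 0 of 28 had the reverse order (4.99%). Tnnc1 had 0 to 22 counts in the Cthrc1-/- day 0 samples and 133 to 252 on day 7.

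The interaction term compares the step from day 0 to day 7 in Cthrc1-/- with that in WT. It passed for 0 of 28 genes by edgeR (0.014% of all genes), with 0 at an unadjusted p under 0.05 (15.1%), for 0 by DESeq2 (4.76%), and for 0 by limma on log2(FPKM + 1) (0.0279%) and on log2(FPKM + 0.1) (0.00699%). The median was -0.08 (all genes 0.02), 1.39 without WT day 7 replicate 2 and -0.48 without Cthrc1-/- day 0 replicate 3. Tnnc1 had the largest value, 2.54 (SE 1.35; edgeR, adjusted p 0.395). The comparisons share groups: WT day 7, with its replicate 2, enters the genotype comparison on day 7, the comparison of days in WT and the interaction.

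Other genes of the same machinery, 50 in number and listed by function, were read beside the 34. Of these 32 passed the filter. On day 0 their log2 change was below 0 in 31 of 32 (53.6% of all genes), with a median of -1.25. In 20 of 32 all Cthrc1-/- samples lay below all WT samples (19.8% of all genes). edgeR called 1 of the 32, a smaller share than the 5.78% it called of all genes. This was Sln, the sarcolipin that restrains the calcium pump. Sln measured 0.632, 0.683 and 3.72 FPKM in WT day 0, 0.0745, 0.164 and 0 FPKM in Cthrc1-/- day 0, 1.60, 2.26 and 1.95 FPKM in WT day 7 and 2.24, 1.99 and 2.52 FPKM in Cthrc1-/- day 7, and its log2 change on day 0 was -4.33 (SE 0.991; edgeR, adjusted p 0.0402). It was highest in WT day 0 replicate 3 and absent from the counts of Cthrc1-/- day 0 replicate 3. Without WT day 0 replicate 3 the log2 change was -2.97, and without Cthrc1-/- day 0 replicate 2 it was -5.27. Over all alternatives its adjusted p ran from 4.42e-05 (DESeq2) to 0.120. The edgeR call was lost without each of 10 single samples in turn (adjusted p 0.0529 to 0.120). It held without Cthrc1-/- day 0 replicate 1 (0.0459) or WT day 7 replicate 1 (0.0329). Between days in Cthrc1-/- its log2 change was 4.48 (SE 0.995; edgeR, adjusted p 0.0580).

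Next by p on day 0 came Casq2, the slow and cardiac calsequestrin, Cacnb1, a calcium channel subunit, and Tmod4, which caps thin filaments. Casq2 measured 2.39, 2.11 and 2.42 FPKM in WT day 0, 0.712, 0.887 and 0.663 FPKM in Cthrc1-/- day 0, 0.633, 2.84 and 0.683 FPKM in WT day 7 and 2.65, 1.97 and 2.15 FPKM in Cthrc1-/- day 7. Its Cthrc1-/- day 0 samples lay below all WT day 0 samples, the Cthrc1-/- day 7 samples lay above the Cthrc1-/- day 0 samples, and in WT replicate 2 was high and replicates 1 and 3 low on day 7. The log2 change of Casq2 was -1.70 on day 0 (edgeR adjusted p 0.0703) and 2.35 in the interaction (edgeR adjusted p 0.212). For Cacnb1 the day 0 value was -0.92 (edgeR adjusted p 0.0712) and for Tmod4 -2.49 (edgeR adjusted p 0.0851). On day 7 between genotypes, Cox7a1, Pgam2, Ckmt2 and Mylk2 had the smallest p. Their log2 changes were -1.16, -1.91, -3.05 and -2.46, each at an edgeR adjusted p of 0.907. These values include WT day 7 replicate 2, the highest WT day 7 sample in each gene. WT day 7 replicates 1 to 3 measured 8.17, 55.2 and 12.4 FPKM in Pgam2 and 0.653, 5.53 and 0.551 FPKM in Mylk2. Ckmt2 measured 11.6 FPKM in replicate 2 and 0.757 FPKM in replicate 1. In 4 of the 32 genes every Cthrc1-/- sample lay below every WT sample on day 7 (2.67% of all genes). Cox7a1, Pgam2 and Mylk2, named here for their small p, were among them, and Ckmt2 overlapped. The gap was small in Pgam2 (highest Cthrc1-/- 7.73 FPKM, lowest WT 8.17 FPKM) and in Mylk2 (0.543 and 0.551 FPKM). Csrp3, a muscle LIM protein, was among the first 4 between days in Cthrc1-/- at 1.62 (edgeR adjusted p 0.152). In WT between days Cacnb1 (-0.61), Casq2 (-0.94), Flnc (0.78) and Myom3 (-0.66) came first, at edgeR adjusted p of 0.146 to 0.366.

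Some levels depend on how reads were assigned and on gene length. The length implied by the deposited counts and FPKM ran from 889 bases in Tnnc2 to 130626 in Ttn, and over the 34 genes the longer ones had lower mean FPKM (Spearman rho -0.485, a description over genes). This length exceeds the longest transcript in GENCODE M21 in all 34 genes, for example in Tpm3 (6763 against 2233 bases), Tpm1 (7208 against 2890 bases) and Tnni1 (4018 against 1150). In Tpm3, 45.7% of the 100-base stretches of its transcript also occur in Tpm3-rs7, and that share was 11.2% in Myh7 (with Myh6), 9.73% in Myh1 and 9.17% in Myh2 (with each other and Myh8) and 9.36% in Myl1 (with Mylf-ps). The split of reads within these pairs is uncertain. Another annotated gene overlaps 19 of the 34, such as Ube2c at Tnnc2, Nisch at Tnnc1 and Myhas at Myh1.

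**Figure D5:**
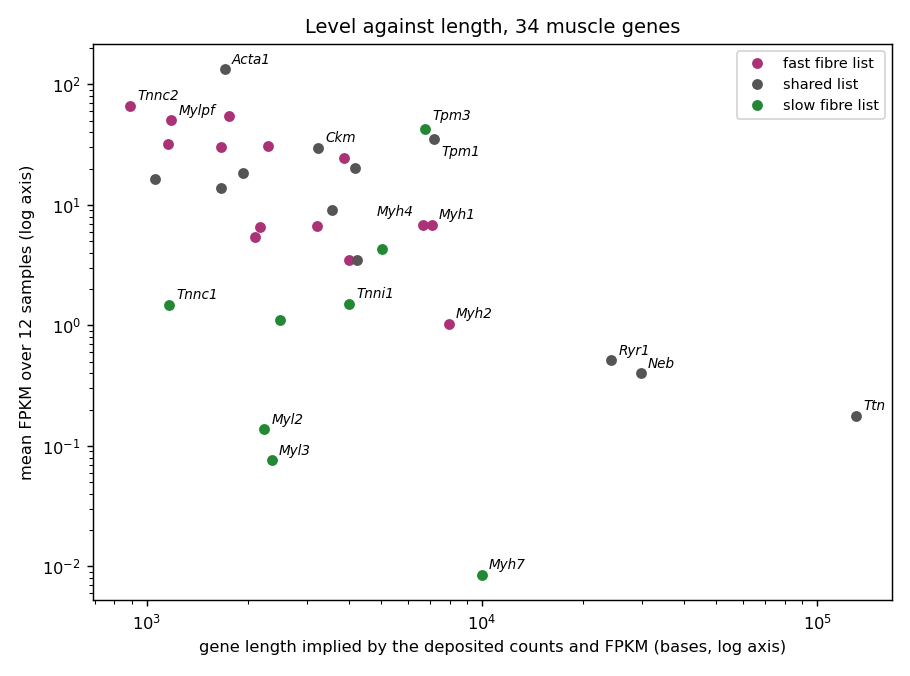
Mean FPKM over the 12 samples (log axis) against the gene length implied by the deposited counts and FPKM (bases, log axis), 1 point per gene, coloured by list. The giant genes Ryr1, Neb and Ttn sit low at the right, and the slow genes Myl2 and Myl3 sit low at lengths shared with abundant fast genes. Slow Myh7 sits lowest, at a length (9968 bases) above that of every fast gene (at most 7959, in Myh2).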

How the data were processed

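Dermis RNA of 12 mouse samples was sequenced from poly(A)-selected, strand-marked libraries with molecular identifiers, per the labels' protocols. The deposited table gives a whole-number count and an FPKM per gene and sample, both made by the authors, per the file headers. The submitters' processing notes name cutadapt 1.9, HISAT2 2.0.4, UMI-tools, StringTie 1.3.4d, DESeq2, edgeR and the build GRCm38, without their roles. Whether counts were collapsed on the identifiers or counted by strand is not given in the sources used here. A count of 0 carries a placeholder FPKM of 1e-04, taken as 0. GENCODE M21 named 55141 of 55401 gene IDs, and 0 columns of sample values were left unused.

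The counts were tested with edgeR 4.0.16 (quasi-likelihood F test, two-sided, TMM, R 4.3.3), all 12 samples in one fit of 4 group means, over 14313 genes whose FPKM averaged 1 or more. Benjamini-Hochberg adjustment ran over all of these genes for each of 5 comparisons. Standard errors are the log2 change over the root of F. Alternatives used DESeq2 1.42.0, limma 3.58.1 on log2(FPKM + 1) and log2(FPKM + 0.1), other scalings and filters, counts divided by 4, and each sample left out in turn. The edgeR procedure was also run on simulated counts with the same spread for every gene. That run does not show how it performs on the members. Total counts limit precision through counting error only. The members and lists were chosen with earlier results of these data known. Every member is accounted for, with values per sample for those that lead their role, for the least correlated one, and of the other machinery genes the 4 with the smallest p in a comparison are named. Promoters and motifs were chosen after values had been seen.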

Additional observations from a re-analysis of the deposited data

How the results depend on the processing

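No member was called by edgeR in any of the 5 comparisons, and this count was also 0 in 45 results under 11 alternatives and above 0 in 9. With DESeq2 it was 3 between genotypes on day 0 (Des, Myh1, Tnnc1), 1 between genotypes on day 7 (Myh1), 1 between days in WT (Tpm3) and 2 between days in Cthrc1-/- (Tnnc1, Tnnt1). DESeq2 called 19.5%, 0.433%, 24.8% and 9.84% of all genes there, so the member share was above that of all genes on day 7 alone. With limma it was 1 in WT and 2 in Cthrc1-/- on log2(FPKM + 1), and 1 and 2 on log2(FPKM + 0.1), for the same genes as DESeq2, and with total-count scaling it was 1 in WT (Tpm3). The cause of these differences was not tested. Leaving out each of the 12 samples in turn gave 0 to 1 on day 0 between genotypes and 0 in the other comparisons. The calls were Des without Cthrc1-/- day 0 replicate 1, where 2146 of 14313 genes were called, and Tpm3 without WT day 7 replicate 1, where 1574 were. The median log2 change of the members moved by more than the spread between samples without WT day 7 replicate 2 alone, in the day 7, WT and interaction comparisons. The replicate numbers recur in all groups, but correlations of same-numbered samples were not all above 0.1 in any comparison (-0.065, -0.124 and 0.426 between days in Cthrc1-/-), so the numbers were not taken as pairs. With the replicate number as a block 0 members were called in each of the 5 comparisons. No called direction was reversed among 36 combinations of gene and comparison. The member median had an SD of 0.94 (log2) between replicates of a group, which with 3 samples a group limits the precision. The median was near 0 between days and in the interaction, and its sign there varied with the setting. The scarce slow genes rest on few counts, and Tnnc1 and Tnnt1 passed the filter on low values through their day 7 samples.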
